A study of Mus musculus with 4 samples.

Results

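The structural RNAs described here are 9 genes whose products work as RNA, in enzymes, scaffolds or ribosomes: Rmrp, Rpph1, Rn7sk, Terc, Rny1, Rny3, Vaultrc5, Gm26917 and CT010467.1. They were picked by gene symbol, as RNAs of the kind made by RNA polymerases I and III, from a table of 55450 genes, and 8 of the 9 had a fold change. Terc is a listed gene too, although RNA polymerase II makes it in mammals. The cells were mouse Th17 cells, the class of CD4 helper T cells that makes interleukin 17. In the sgAdarb1 group (2 cultures) a PSIN retroviral vector delivered a guide against Adarb1, the gene for the RNA-editing enzyme ADAR2, and in the empty vector group (2 cultures) the same vector was empty and held no guide. Both kinds of culture came from the same 2 donor mice, 8 to 12 weeks old, which the design text calls wild-type although the genotype label of every sample is a Cas9 transgene, and all were activated for 24 h, transduced, and polarized with TGF-β at 0.3 ng/mL and IL-6 at 20 ng/mL for 72 h. An empty vector controls for transduction and not for Cas9 cutting, and the selection of transduced cells is not described in the labels.

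RNase MRP and RNase P are related enzymes with a catalytic RNA: Rmrp is the RNA of RNase MRP, which takes part in ribosomal RNA processing, and Rpph1 is the RNA of RNase P, which trims the 5′ ends of transfer RNAs. Rn7sk is the 7SK RNA, which holds the transcription elongation factor P-TEFb in an inactive complex with LARP7, MEPCE and HEXIM1. Terc is the template RNA of telomerase, Rny1 and Rny3 are Y RNAs bound by the Ro and La proteins, and Vaultrc5 is the RNA of the vault particle. Gm26917 and CT010467.1 are neighbouring annotations on chromosome 17, the first annotated as a long non-coding RNA and the second as ribosomal RNA. In Th17 cells Rmrp is known as a partner of the helicase DDX5 in the control of cytokine genes.

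The RNA sequences that bear on the counts and on the function of these genes are printed 5′ to 3′ in DNA letters from the GENCODE M21 transcripts (GRCm38, the assembly called mm10). Rmrp has 2 annotated rows, and the capitals in its 281 bases mark the 271 bases that the longer row shares with the shorter.

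Rmrp: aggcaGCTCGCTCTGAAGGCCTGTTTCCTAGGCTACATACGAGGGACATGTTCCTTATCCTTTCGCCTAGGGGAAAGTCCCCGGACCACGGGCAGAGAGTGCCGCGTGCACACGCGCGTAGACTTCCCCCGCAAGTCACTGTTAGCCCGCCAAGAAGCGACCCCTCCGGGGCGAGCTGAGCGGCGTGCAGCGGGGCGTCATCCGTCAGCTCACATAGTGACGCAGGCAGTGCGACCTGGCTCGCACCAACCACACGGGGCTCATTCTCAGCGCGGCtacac

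For Rpph1, of 319 bases, both ends are given, with capitals on the 86 bases that lie outside the exons of the protein-coding gene Ccnb1ip1, since the other 233 bases are also exon of that gene on the same strand.

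Rpph1 bases 1 to 60: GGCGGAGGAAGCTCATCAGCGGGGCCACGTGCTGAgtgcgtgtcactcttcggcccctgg
Rpph1 bases 240 to 319: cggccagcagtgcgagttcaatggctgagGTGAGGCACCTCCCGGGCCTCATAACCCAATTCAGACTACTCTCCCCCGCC

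In 7SK RNA the capitals mark the motif GATC (GAUC in the RNA), which HEXIM1 is known to bind in the 5′ hairpin. It occurs 3 times in the 331 bases, first at bases 13 to 16, and at least 3 times in 10.3% of 8857 annotated transcripts of 300 to 400 bases, searched on the RNA strand.

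Rn7sk bases 1 to 90: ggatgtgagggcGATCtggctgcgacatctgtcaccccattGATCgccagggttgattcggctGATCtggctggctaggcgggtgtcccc

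In Terc the capitals mark CTAACCC, the telomere template, at bases 29 to 35 of the 423. The GENCODE model begins 26 bases before the RefSeq model of 397 bases, in which the template stands at bases 3 to 9. Searched on the RNA strand, the motif is present in 1.32% of 10980 annotated transcripts of 400 to 500 bases.

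Terc bases 1 to 90: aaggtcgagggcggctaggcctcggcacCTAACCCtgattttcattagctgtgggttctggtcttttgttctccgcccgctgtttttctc

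The Y RNAs are shown together because they are the shortest of the printed members and share their form. Capitals mark the closing run of T, written as U in the RNA and bound by La. Rny1 and Rny3 were identical in 81 of 112 aligned positions (72.3%), and 11.3% of 4221 annotated transcripts of 90 to 150 bases end in TTTT.
Rny1: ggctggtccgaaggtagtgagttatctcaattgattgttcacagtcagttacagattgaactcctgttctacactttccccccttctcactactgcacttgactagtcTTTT
Rny3: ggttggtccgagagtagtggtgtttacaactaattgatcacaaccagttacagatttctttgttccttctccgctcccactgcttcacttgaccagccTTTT

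Every value per gene below is a single figure over all libraries or a single fold change, because the 4 columns of values per library in the table carry names that match no sample label and were not used. Values per culture are therefore not given, and the grouping behind the fold changes is the authors'. Which group is the numerator of the fold changes is not written in the table. They are read in the order of the design text, sgAdarb1 over empty vector, and would all change sign in the opposite order. The treatment tag contradicts the title in 2 of the 4 samples, and titles were followed. Adarb1 itself lay at 0.11 ± 0.12 (log2 fold change and SE) in the authors' deposited table (mean normalized count 2130), and its mRNA level is no check of a Cas9 cut. The labelled cell type had its markers: in the authors' deposited table the mean normalized count was 15286 for Cd4, 5150 for Cd3e and 1756 for Il17a. Markers of other cells were at lower means in the authors' deposited table, from 129 to 414 for 3 B cell genes, 218 and 287 for Cd8b1 and Cd8a, 2.14 to 14.8 for 4 myeloid genes and 0.521 to 28.7 for 3 mast cell genes. Fold changes were positive for 7 of 8 Th17 cell markers, 2 of 2 CD8 markers and 4 of 4 myeloid markers and negative for the 3 B cell and 3 mast cell markers in the authors' deposited table. The unadjusted p was below 0.05 for Il17a, Il17f, Cpa3 and Cma1, and the part of other cells in the values below was not tested.

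No structural RNA passed the test between sgAdarb1 and empty vector cultures. An adjusted p below 0.05 was reached by 0 of the 8 members with a fold change and by 0 of all 29383 genes (0.00%) in the authors' deposited table, made with DESeq2. At an adjusted p below 0.1 there were 0 of the 8 members and 3 of 29383 genes (0.0102%). At an unadjusted p below 0.05 stood 2 of the 8, CT010467.1 and Gm26917, both positive, against 61 of 29383 genes (0.208%) and 29 positive genes (0.0987%). Evenly spread p-values would put a share of 0.05 there, and only 0.552% of 10680 genes with a mean of at least 50 were there. A lack of calls is therefore not read as a lack of change. The 2 members are neighbouring annotations, and Gm26917 was no longer below 0.05 after a fitted trend on GC content and length was taken out. Of the 8 fold changes 7 were positive and 1 negative, with a median of 0.31 on the log2 scale, where 14957 of 29383 genes (50.9%) were positive with a median of 0.00. Among members with a mean of at least 10 normalized counts, all 6 were positive in the authors' deposited table. With that trend taken out, Rn7sk and Terc were negative, at -0.012 and -0.13. The members were listed with earlier results known and carry very different errors, so these counts describe them and are not a test of the group. In cultures measured in bulk, fewer cells of a type and less RNA per cell cannot be told apart.

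**Figure D1:**
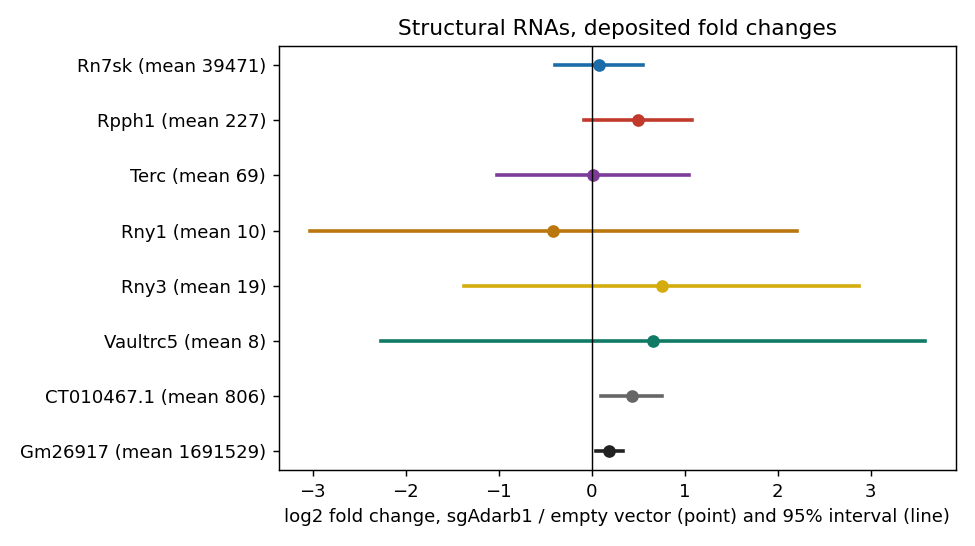
Log2 fold changes of the 8 members with a value, sgAdarb1 over empty vector (horizontal axis), with points for the deposited estimate and lines for its 95% interval. The intervals of CT010467.1 and Gm26917 lie above 0, while those of Rny1, Rny3 and Vaultrc5, with means below 20, are the widest. Rmrp has no fold change and is not drawn.

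Rn7sk, the 7SK RNA, was the most abundant of the members made by polymerase III. It averaged 39471 normalized counts over the libraries in the authors' deposited table, which comes to 119247 per kilobase of exon, above 99.99% of all genes compared. Its log2 fold change was 0.08 ± 0.24 (SE) in the authors' deposited table, a 1.06-fold estimate with an unadjusted p of 0.747. The 95% interval ran from -0.40 to 0.55, so a difference of 2-fold in either direction lies outside it. After a fitted trend on GC content and length was taken out of the fold changes, the value was -0.012, and no direction is given for Rn7sk. The gene (ENSMUSG00000065037.1) lies on chromosome 9, 78175303 to 78175633, on the minus strand, and overlaps no other annotated exon.

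The standard error of Rn7sk stood well above that of equally abundant genes. It was 3.02 times the median SE of its neighbours in mean (0.243 against 0.0806), and 4 of 120 neighbours had an SE as large. The signal recognition particle RNA Rn7s2, which guides secretory proteins to the endoplasmic reticulum, showed the same at 2.83 times, and lay at -0.03 ± 0.46 in the authors' deposited table (mean normalized count 902). Rn7s1 and Rn7s6, the other signal recognition particle RNAs tested, were nearer their neighbours, at 1.177 and 0.9985 times. For mt-Rnr1, a ribosomal RNA of mitochondria, the ratio was 3.04 times, and its partner mt-Rnr2 was not, at 0.981 times. In all, 30 of 3664 genes with a mean of at least 1000 (0.819%) had an SE at least 2 times that of their neighbours. The other 7 members with a fold change lay between 0.936 and 1.09 times. What lies behind the wide error of Rn7sk could not be looked at without values per culture.

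**Figure D2:**
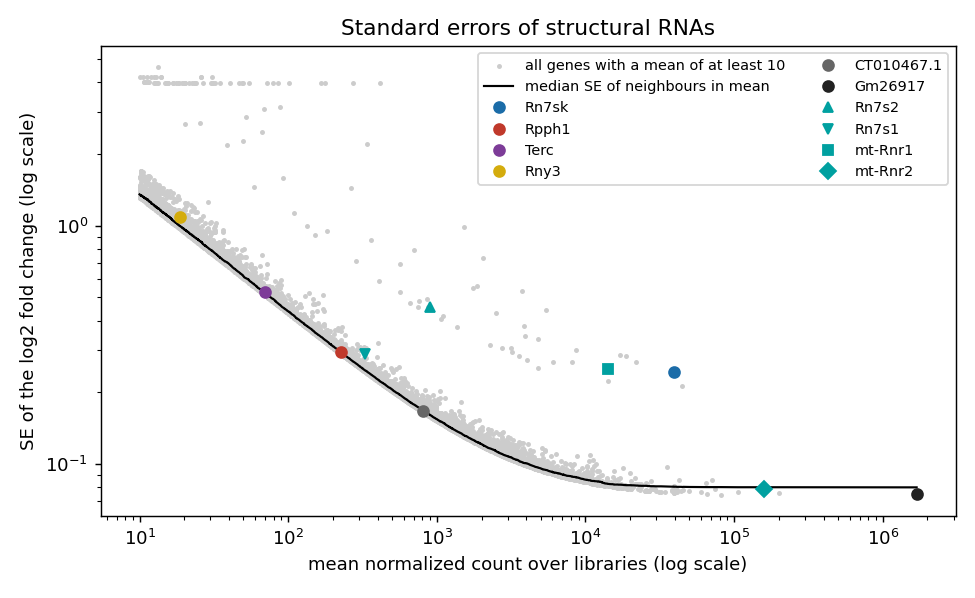
Standard error of the log2 fold change (vertical axis, log scale) against the mean normalized count (horizontal axis, log scale) for all genes with a mean of at least 10, with the median of neighbours as a line. Rn7sk, Rn7s2 and mt-Rnr1 lie about 3 times above the line, and Gm26917, CT010467.1, Rpph1, Terc and Rny3 lie close to it.

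Copies of 7SK RNA are annotated elsewhere in the mouse genome. At an identity of at least 80% over at least 50% of its length, 35 other annotated genes matched Rn7sk, of which 20 had a mean above 0. Together they had 205 normalized counts, 0.519% of the mean of Rn7sk. The copy of highest mean, Gm24447, carries 241 bases identical to Rn7sk and was at 0.27 ± 0.38 in the authors' deposited table (mean normalized count 132). Reads that match Rn7sk and a copy equally well cannot be placed with certainty, and how many there were was not measured. The sources used here do not say how reads with several matches were treated.

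The protein partners of 7SK RNA were close to 0 as mRNAs. Of 14 listed genes of the 7SK particle and P-TEFb, 6 were positive and 8 negative, with a median of -0.04, and 0 had an unadjusted p below 0.05, where 0.412% of all 14547 genes averaging 10 or more did. Larp7, which binds the 3′ end of 7SK RNA, was at -0.10 ± 0.19, and Mepce, which caps it, at 0.09 ± 0.18 in the authors' deposited table. Hexim1, the inhibitor of P-TEFb, was at 0.03 ± 0.16 in the authors' deposited table. The P-TEFb kinase Cdk9 and its cyclin Ccnt1 were at 0.08 ± 0.13 and 0.04 ± 0.12 in the authors' deposited table. The most abundant listed genes were Hnrnpa2b1, at -0.12 ± 0.08, Hnrnpa1, at -0.05 ± 0.09, and Ddx21, at -0.10 ± 0.09, RNA-binding proteins that associate with 7SK RNA, in the authors' deposited table.

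Rpph1, the RNase P RNA, did not pass, and its log2 fold change was below those of the scarcer Rny3 (0.75) and Vaultrc5 (0.66). It was at 0.50 ± 0.30 (SE) in the authors' deposited table (mean normalized count 227), a 1.41-fold estimate with an unadjusted p of 0.0908, rank 143 of 29383 genes. The 95% interval ran from -0.08 to 1.08, and with this error it would have passed on its own only at a log2 fold change of 1.41. The value was 0.35 with the GC content and length trend removed. Rpph1 (ENSMUSG00000092837.1) lies on chromosome 14, 50807449 to 50807767, on the minus strand, and only 86 of its 319 bases, the capitals printed above, are free of the exons of Ccnb1ip1. Ccnb1ip1, a protein-coding gene known from meiotic recombination, was listed at 0 in the authors' deposited table. Parp2, a DNA repair gene that starts beside Rpph1 on the other strand and was chosen for mention after its value was seen, was at -0.06 ± 0.20 in the authors' deposited table.

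Rmrp could not be compared, because both of its rows were listed at 0 in the authors' deposited table. The shorter row (ENSMUSG00000088088.1), annotated as a ribozyme, spans chromosome 4, 43492788 to 43493058, on the minus strand, and the longer (ENSMUSG00000115420.1), annotated as a long non-coding RNA, spans 43492783 to 43493063. All 271 bases of the shorter row lie in the longer row, which leaves 10 free bases in the longer and none in the shorter. A further gene, Ccdc107, runs the other way across 124 of these bases, and was at -0.03 ± 0.41 in the authors' deposited table (mean normalized count 114). The value of 0 is not read here as a level of Rmrp RNA, and what lies behind it was not tested. Ddx5, the helicase partner of Rmrp, also mentioned after its value was seen, was at -0.06 ± 0.08 in the authors' deposited table (mean normalized count 19413).

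Across the table, nearly all genes whose exons are wholly covered by other exons were listed at 0, and most partly covered genes were not. Of 474 genes whose exons lie wholly within exons on the opposite strand, 474 were listed at 0, and of 765 genes wholly covered on the same strand, 745 were (97.4%). Of 10646 partly covered genes, the class that holds the longer Rmrp row with its 10 free bases, 2362 were listed at 0 (22.2%), a smaller share than the 22480 of 43557 genes with no exon overlap (51.6%). Among small RNA genes, all 237 wholly covered on the same strand were listed at 0, beside 94 of 140 partly covered (67.1%) and 2552 of 3436 with no overlap (74.3%). The highest mean of a gene wholly covered on the same strand was 9.33, against 1691529 among genes with no overlap. Of 178 rows in which a symbol appears with overlapping exons on the same strand, as Rmrp does, 131 were listed at 0. Both rows of Rprl1, a relative of Rpph1, were among those at 0 in the authors' deposited table. The sources used here give neither annotation nor strand setting for the counting, and these shares hold for overlap as GENCODE M21 draws it.

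**Figure D3:**
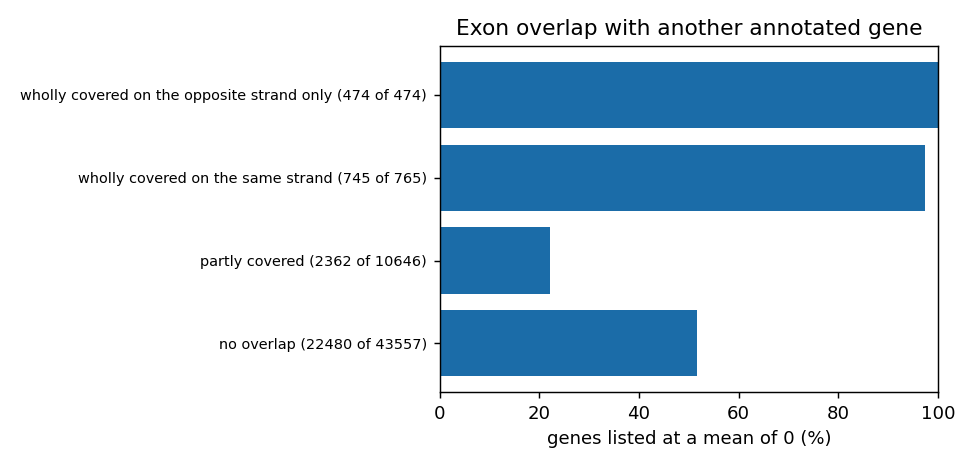
Share of genes listed at a mean of 0 (horizontal axis, percent) by how their exons overlap those of another annotated gene, with the numbers in brackets. Wholly covered genes are at 0 in 474 of 474 (opposite strand) and 745 of 765 (same strand), partly covered genes in 2362 of 10646, and genes with no overlap in 22480 of 43557.

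The mRNAs of listed RNase P and RNase MRP proteins were also near 0. Of 11 listed genes 10 had a mean of at least 10, with 7 positive and 3 negative, a median of 0.02 and 0 at an unadjusted p below 0.05. Pop1, the largest protein subunit, was at -0.10 ± 0.17 in the authors' deposited table. Pop4 and Pop5 were at -0.05 ± 0.18 and 0.02 ± 0.19 in the authors' deposited table. The subunit genes Rpp30 and Rpp38 were at -0.02 ± 0.26 and 0.06 ± 0.37 in the authors' deposited table.

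Gm26917 took 9.55% of all summed mean normalized counts, and the 8 members with a value took 9.78% together. It averaged 1691529 normalized counts over the libraries in the authors' deposited table, or 508119 per kilobase of exon, the highest level per length of the members. Its log2 fold change was 0.19 ± 0.07 (SE) in the authors' deposited table, a 1.14-fold estimate with an unadjusted p of 0.0117, and the 95% interval ran from 0.04 to 0.34. To pass on its own it needed 0.36. Once that fitted GC and length trend was removed, the value was 0.07 with an unadjusted p of 0.339, so its place among the genes at an unadjusted p below 0.05 ended there. Gm26917 (ENSMUSG00000097971.3) spans chromosome 17, 39843013 to 39846341, on the plus strand, with no exon overlap, and its exons are 69.1% G and C. The libraries were made from ribosome-depleted RNA.

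CT010467.1, the annotated ribosomal RNA next to Gm26917, had the smallest unadjusted p of the members. It was at 0.43 ± 0.17 (SE) in the authors' deposited table (mean normalized count 806), a 1.35-fold estimate. Its unadjusted p of 0.0103 held rank 10 of 29383 genes and that of Gm26917 rank 13, with the deposited adjusted p at 1.00 for both. The 95% interval of CT010467.1 ran from 0.10 to 0.76, and a log2 fold change of 0.80 would have been needed to pass alone. With the GC content and length trend removed it was at 0.38 with an unadjusted p of 0.0215. The gene (ENSMUSG00000106106.2) spans chromosome 17, 39846353 to 39848827, on the minus strand. Of its 2466 exonic bases 644 are free of other exons, since Gm42418 on the opposite strand covers 1822 and AY036118 on the same strand covers 923, and both of those genes were listed at 0 in the authors' deposited table.

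**Figure D4:**
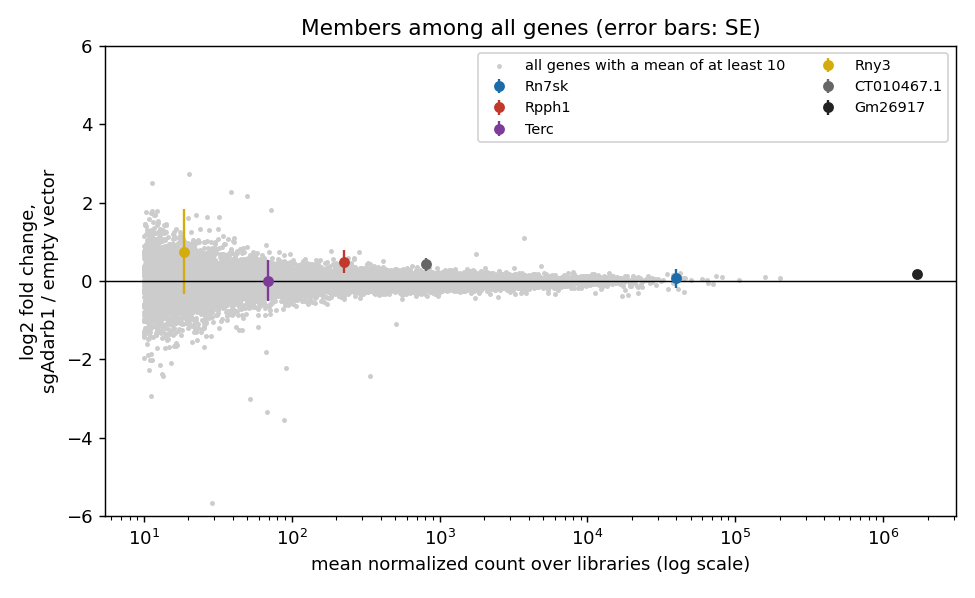
Log2 fold change, sgAdarb1 over empty vector (vertical axis), against the mean normalized count (horizontal axis, log scale) for all genes with a mean of at least 10 in grey and the 6 members at that level in colour, with SE bars. Gm26917 stands apart by its mean of 1691529, and CT010467.1 and Rpph1 lie toward the upper edge of genes of like mean at 0.43 and 0.50.

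Few other ribosomal RNA loci lay above a mean of 10. Of 361 listed rows, CT010467.1 among them, 77 others had a fold change and 3 of those reached that mean, all 3 positive. Those from mitochondria, mt-Rnr2 and mt-Rnr1, were at 0.11 ± 0.08 and 0.16 ± 0.25 in the authors' deposited table. Without a minimum mean, the median over 77 rows was -0.29, against 0.16 over the 3, so no direction is given for the group. The 5S ribosomal RNA gene Rn5s, a multicopy polymerase III gene, was listed at 0 in the authors' deposited table.

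The mRNAs of the polymerases that make these RNAs were centred near 0. For RNA polymerase III and its factors, 12 of 30 genes were positive and 18 negative, with a median of -0.01 and 0 at an unadjusted p below 0.05. The catalytic subunit Polr3a was at 0.02 ± 0.15 and the repressor Maf1 at 0.07 ± 0.20 in the authors' deposited table. Brf2, the initiation factor of promoters such as that of Rn7sk, was at 0.01 ± 0.30, and Brf1, which serves transfer RNA genes, at -0.01 ± 0.21 in the authors' deposited table. Gtf3c1, Bdp1 and Polr3c, the most abundant of the list, were at 0.04 ± 0.10, -0.10 ± 0.10 and 0.10 ± 0.14 in the authors' deposited table.

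For RNA polymerase I and its factors, 6 of 22 genes were positive and 16 negative, with a median of -0.05, beside 0.00 over all 14547 genes with a mean of at least 10. The nucleolar protein gene Ncl was the only member of this list at an unadjusted p below 0.05, at -0.21 ± 0.10 with p = 0.0305 in the authors' deposited table, and did not pass. Polr1a, the catalytic subunit, was at -0.02 ± 0.11, Rrn3, its initiation factor, at -0.01 ± 0.12 and Ubtf, which binds ribosomal DNA, at -0.09 ± 0.10 in the authors' deposited table. Nop56, a core protein of box C/D particles, and Nolc1, a nucleolar chaperone, were at -0.12 ± 0.09 and -0.09 ± 0.11 in the authors' deposited table.

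**Figure D5:**
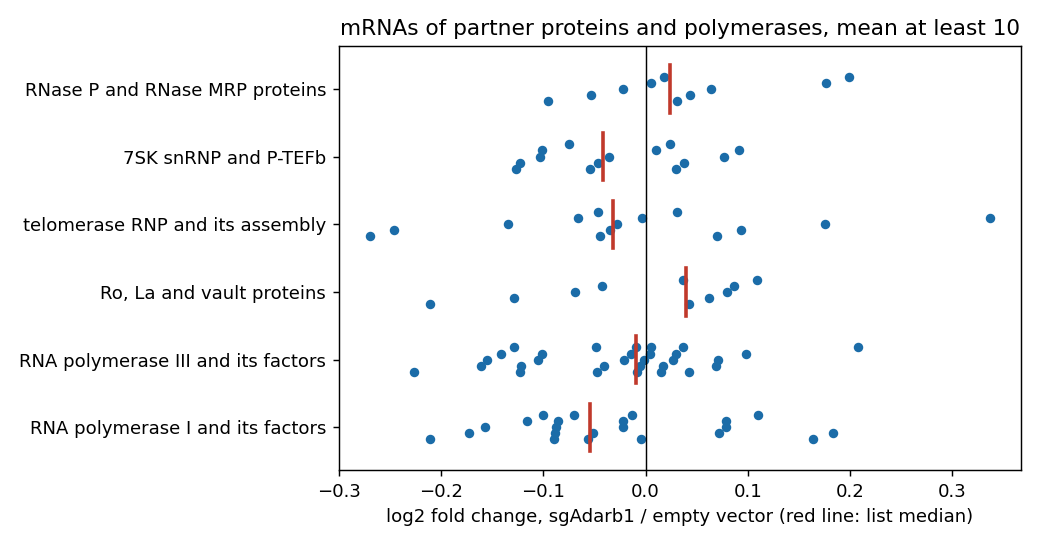
Log2 fold changes, sgAdarb1 over empty vector (horizontal axis), of the genes in 6 lists of partner proteins and polymerases with a mean of at least 10. Points are genes and red lines are list medians, which lie between -0.05 and 0.04.

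Terc, the telomerase RNA, was at 0.01 ± 0.53 (SE) in the authors' deposited table (mean normalized count 69.4). Its 95% interval, from -1.02 to 1.05, includes a 2-fold difference either way, and the value was -0.13 with the GC content and length trend removed. The gene (ENSMUSG00000064796.1) lies on chromosome 3, 96414437 to 96414859, on the minus strand. Among 14 genes of the telomerase particle and its assembly with a mean of at least 10, 5 were positive and 9 negative, with a median of -0.03. Tert, the reverse transcriptase, was at 0.34 ± 0.52 in the authors' deposited table (mean normalized count 69.6). Dkc1, the pseudouridine synthase that stabilizes Terc, was at -0.25 ± 0.12 in the authors' deposited table (unadjusted p 0.0422), the only gene of the list below 0.05, and did not pass. Its partners Nhp2 and Gar1 were at -0.03 ± 0.12 and -0.07 ± 0.15, and Wrap53, which carries telomerase to Cajal bodies, at 0.09 ± 0.31 in the authors' deposited table.

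The Y RNAs and the vault RNA were too scarce to compare. Rny3 was at 0.75 ± 1.08 (SE; mean normalized count 18.7), and Rny1 at -0.42 ± 1.34 in the authors' deposited table (mean normalized count 9.86). Vaultrc5, on chromosome 18, was at 0.66 ± 1.49 in the authors' deposited table (mean normalized count 7.77). All 3 intervals span more than a 2-fold difference in each direction, and log2 fold changes of 5.18, 6.39 and 7.13 would have been needed by Rny3, Rny1 and Vaultrc5 to pass alone. Rny3 (ENSMUSG00000064945.1) spans chromosome 6, 47781624 to 47781725, on the plus strand, and Rny1 (ENSMUSG00000065701.1) spans 47788069 to 47788180 of the same chromosome on the minus strand. At the copy limits used for Rn7sk, Rny1 matched 16 other genes, of which 3 had a mean above 0, and Rny3 matched none. The 3 copies of Rny1 sum to a mean of 269, above that of Rny1, and nearly all of it is the protein-coding gene Fpgt (mean normalized count 268 in the authors' deposited table), whose transcript holds a stretch 81.0% identical to Rny1 over 100 bases. In GENCODE these are the 3 shortest members, at 102, 112 and 143 bases, but the RefSeq model of Vaultrc5 has 345 bases, so its length and its level per kilobase depend on the model. RNA was isolated on RNeasy columns, which are known to retain short RNAs poorly; the part of length in these levels was not tested.

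The levels per kilobase of exon set the members in order, without an error over cultures. After Gm26917 and Rn7sk came Rpph1 at 711 and CT010467.1 at 327 normalized counts per kilobase, then Rny3 at 183, Terc at 164, Rny1 at 88.0 and Vaultrc5 at 54.4. All exonic bases were used as the length, although only 86 of 319 in Rpph1 and 644 of 2466 in CT010467.1 are free of other exons. The part of exon overlap in these levels was not tested. Genes of most similar pattern across samples were not sought, as that needs values per culture.

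The listed genes of Ro, La, vault and further RNA-binding proteins were measured with smaller errors than the Y and vault RNAs. Of 10 matched genes 6 were positive and 4 negative, with a median of 0.04, and Ncl, which this list shares with that of polymerase I, was again the only gene at an unadjusted p below 0.05. Ssb, the La protein, was at -0.13 ± 0.11 in the authors' deposited table. Trove2, which encodes the Ro protein, was at 0.08 ± 0.27 in the authors' deposited table. The major vault protein gene Mvp was at 0.11 ± 0.11, and the further vault proteins Parp4 and Tep1 at 0.04 ± 0.12 and 0.09 ± 0.13 in the authors' deposited table. Larp1, an abundant La-related protein, was at -0.07 ± 0.08 in the authors' deposited table.

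Few other polymerase III RNAs had a mean of at least 10. Bc1, a brain cytoplasmic RNA, was at 0.33 ± 0.18 in the authors' deposited table (mean normalized count 850, unadjusted p 0.0649). The signal recognition particle RNA genes Rn7s1 and Rn7s6 were at 0.11 ± 0.29 and 0.51 ± 0.74 in the authors' deposited table, so that with Rn7s2 there were 3 positive and 1 negative of 4 tested, with a median of 0.22. Among small RNA classes, with the members left out, misc_RNA genes were positive in 4 of 11 (median -0.09), small nuclear RNAs in 7 of 22 (median -0.21), small Cajal body RNAs in 5 of 8 (median 0.13) and small nucleolar RNAs in 13 of 49 (median -0.26). The median SEs were 0.94, 0.96, 0.36 and 0.94 in that order, larger than each median. The misc_RNA genes include Rn7s1, Rn7s2 and Rn7s6 and the Rn7sk copy Gm24447. Snord17, a small nucleolar RNA at -1.10 ± 0.24 in the authors' deposited table (mean normalized count 507), was the only gene of these classes with an unadjusted p below 0.05. In the deposited DESeq2 test its unadjusted p of 6.37e-06 held rank 2 of 29383 genes, and its adjusted p of 0.0709 did not pass. The most abundant small Cajal body RNAs with a symbol not starting with Gm, Scarna13, Scarna2 and Scarna6, were at 0.13 ± 0.15, 0.30 ± 0.20 and -0.26 ± 0.34 in the authors' deposited table. By the same choice the small nuclear RNAs Rnu2-10, Rnu5g and Rnu12 were at -0.03 ± 0.65, 0.28 ± 0.77 and 0.12 ± 1.17, and the small nucleolar RNAs Snord15a and Snora78 at -0.01 ± 0.55 and -0.50 ± 0.55, in the authors' deposited table. The medians of misc_RNA, small nuclear and small Cajal body RNAs changed sign with another minimum mean, at 0.11, 0.00 and -0.18.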

How the data were processed

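RNA-seq of 4 mouse Th17 cultures, sgAdarb1 and empty vector from each of 2 donor mice, was deposited by the authors as a table of DESeq2 results. Reads were aligned with STAR 2.6.1a to mm10, counted with featureCounts and compared with DESeq2 1.18.1, per the submitters' processing notes; those notes and the labels give no annotation, strand setting, multiple-match rule or model formula. The deposited mean is a normalized signal, counts divided by size factors and averaged over all libraries, per the file headers. Also deposited by the authors are log2 fold changes and errors, a Wald score and a p-value, raw and adjusted. The score equalled fold change over error, and the adjusted p-values equalled a Benjamini-Hochberg adjustment over 29383 genes. Another 4 columns of values per library match no sample label and were not used, so the depth of each culture is unknown and no model was refitted. Groups follow the sample titles.

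Symbols, coordinates, exon overlaps and transcripts came from GENCODE M21, in which all 55450 identifiers matched. Intervals are normal 95% intervals from the deposited errors. Copies were sought with blastn 2.17.0. A quadratic in log2 length and in the GC content of each gene's longest transcript, weighted by inverse variance, was fitted where the mean was 10 or more. It was subtracted from the fold changes as an alternative, and tested on simulated data with the length of that transcript. Python 3.11.15, pandas 2.3.3 and scipy 1.17.1 were used. The members and lists were chosen with earlier results of these data known. Named genes were the 9 members, genes overlapping them, the core proteins that bind or make them, and in each list up to 4 genes of unadjusted p below 0.05 and the 3 of highest mean (in RNA classes, among symbols not starting with Gm); Ddx5, Parp2, Adarb1 and the cell type markers were added.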

Additional observations from a re-analysis of the deposited data

How the results depend on the processing

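The count of all genes past the threshold, 0 as deposited, was 3 when p was adjusted over genes averaging 10 or more, 2 over genes averaging 50 or more, 3 at an adjusted p below 0.1, 61 at an unadjusted p below 0.05, and 0 if a log2 difference of 1 or more was also required. The count of members past the threshold, 0 as deposited, was 0 under each of these adjustments and 2 at an unadjusted p below 0.05. With the GC content and length trend removed, Rn7sk was at -0.012 and Terc at -0.13, the opposite sign to the deposited values, and the cause was not tested. In the other 22 of 24 alternatives for the members the direction was kept; centring moved all genes by at most 0.01 on the log2 scale. Of 36 alternatives for the lists, 4 changed the sign of a median, all with another minimum mean: other ribosomal RNA loci (-0.29 with none), misc_RNA (0.11 at 50), small nuclear RNA (0.00 with none) and small Cajal body RNA (-0.18 with none).

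No paired analysis was possible because no library's column matches a culture's labels. For the same reason the DESeq2 and edgeR refits and leaving out each culture were not run. Taking the row of second highest mean for a symbol gave no value, since only Rmrp has 2 rows and both are listed at 0. The 95% intervals of Terc, Rny1, Rny3 and Vaultrc5 include a 2-fold difference either way; library depth, the number of cultures and the low level of these RNAs cannot be told apart here.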
